A study of Mus musculus with 8 samples.

Results

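The genes of translation initiation and elongation factors were read on arrays of secondary septal tips and of whole lung from neonatal mice. Members were all probe sets whose single annotated gene symbol begins with Eif or Eef followed by a digit. This rule reads no measured value, but it was chosen with earlier results of these data known. There were 66 such probe sets, for 49 genes, among 12488 probe sets in all, of which 10855 carry 1 symbol. The tip group was laser-captured tips of secondary alveolar septae, the ridges that subdivide the air spaces, pooled over many animals. Its comparison group was pooled whole lung tissue. Both came from C57/Bl6 mice at postnatal day 6, which share strain and age, and no treatment is given in the labels. Each group had 2 RNA samples, from experiment 1 and from experiment 2 with other litters, and each RNA was hybridised to 2 arrays at different times, which makes 8 arrays of 4 RNA samples. Groups were taken from the sample titles, since the description line of the tip samples reads whole lung. Tips were amplified, and the labels give amplification for only part of the lung arrays while the design text gives it for both tissues. A captured tip holds a mixture of cell types, so fewer cells of a type and less RNA per cell cannot be told apart in any result.

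Translation starts when eIF2 brings the initiator tRNA to the small ribosomal subunit, with eIF1, eIF1A, eIF3 and eIF5 bound to it, and the subunit is loaded onto the capped end of an mRNA by the eIF4 factors. The 4E-binding proteins hold back the cap-binding factor when mTOR is inactive, and kinases that phosphorylate eIF2 reduce initiation under stress. During elongation, eEF1A delivers aminoacyl-tRNA and eEF2 moves the ribosome along the message. Several of these mRNAs are among the most abundant of a cell.

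Signals are the deposited intensities on a linear scale. The 4 signals of a group run in the order array 1, array 2 of experiment 1 and then array 1, array 2 of experiment 2. Each difference is on the log2 scale, the tip value minus the lung value, ± the standard error of a limma fit over 7453 probe sets (n = 2 RNA samples per group). A call is an adjusted p (limma, Benjamini-Hochberg over all probe sets tested) under 0.05. Background is the 95th percentile of 19 bacterial and yeast control probe sets on an array. It lay between 487 and 1244 on the tip arrays and between 314 and 568 on the lung arrays. The highest was on the second array of the tip RNA of experiment 1.

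The lung RNA of experiment 1 stood apart in a sex-linked member, Eif2s3y, and was the lowest in Xist. Eif2s3y is the Y-chromosomal copy of the gamma subunit of eIF2. Its signals were 156, 248, 420.4 and 651 on the tip arrays, against 3170.4, 3322, 21.4 and 108 on the lung arrays. The lung RNA of experiment 1 was thus high and all other RNA samples were low. Xist, the X-linked RNA expressed from the inactive X chromosome of female cells, gave 1886, 1022, 11457 and 8642 on the tip arrays, against 73.7, 439.5, 4823 and 3888 on the lung arrays, where the lung RNA of experiment 1 was the lowest. In tips, too, Xist was lower in experiment 1 than in experiment 2. The Y-linked gene Uty gave 185, 69.1, 85.3 and 121 on the tip arrays, against 337, 410.3, 31.5 and 68.1 on the lung arrays, all under background. Kdm5d, also Y-linked, gave 783, 848, 106 and 836 on the tip arrays, against 86.2, 454, 98.1 and 39.4 on the lung arrays, and the lung RNA of experiment 1 did not lie above the other RNA samples there. Xist, Uty and Kdm5d were chosen after their values were seen. The calls of members and of pathway genes are therefore also given without the lung RNA of experiment 1. The part of this difference in the other results was not tested.

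**Figure D1:**
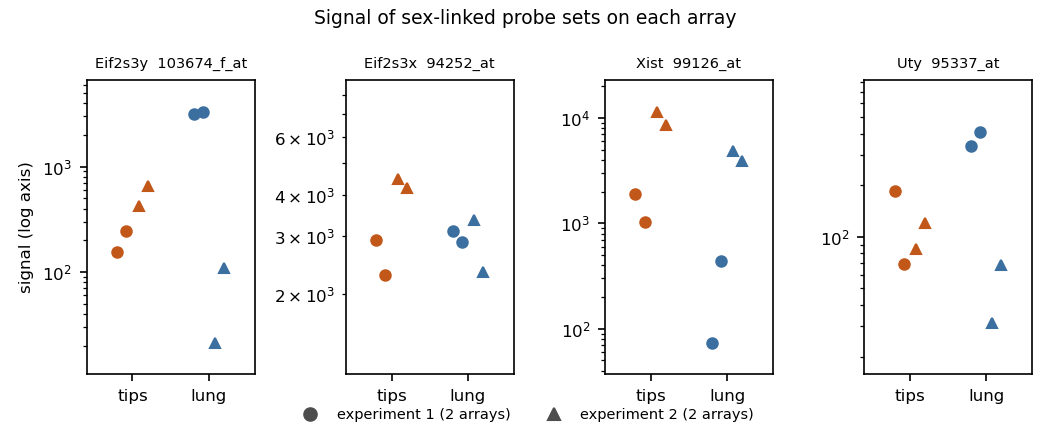
Signal of Eif2s3y, Eif2s3x, Xist and Uty on each array (vertical log axis), with tips left of lung and experiments shown by symbol. Eif2s3y lay at 3170.4 and 3322 in the lung RNA of experiment 1 and at 651 or below on every other array, while Xist was lowest there.

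Cell type markers also differed between the groups. The 3 alveolar type II markers on the array (Sftpb, Sftpc and Sftpd, which encode surfactant proteins) summed to between 99022 and 114983 on tip arrays and between 22522 and 38027 on lung arrays, with 1 of 3 tested probe sets higher. This was Sftpc, which alone gave between 94374 and 109392 on tip arrays. The septal tip and myofibroblast list (5 genes, Eln, Acta2, Tnc, Pdgfra and Lgals1) summed to between 84175 and 225670 on tip arrays and between 63017 and 118791 on lung arrays, with 2 of 8 tested probe sets higher and 0 lower. The brightest probe set of Eln, not called, gave between 47002 and 151362 on tip arrays. Acta2 gave 0.09 without passing. The brightest probe set of Pdgfra gave -0.83 without passing, with every tip array below every lung array. Airway markers summed to between 32987 and 83777 on tip arrays and between 14526 and 24479 on lung arrays. Of these, Scgb1a1 and Foxj1 were called higher and Cyp2f2 was not. Endothelial markers summed to between 36663 and 61879 on tip arrays and between 20686 and 25408 on lung arrays. Tie1 and Pecam1 were called higher (1.94 and 1.41), while Cdh5 and Kdr gave 0.48 and 0.05 without passing. Tie1 alone gave between 15772 and 36534 on tip arrays at its tested probe set. The summed signal of alveolar type I markers went the other way, between 18198 and 28179 on tip arrays and between 39727 and 49997 on lung arrays. The markers themselves did not go the same way. Hopx, with mean signals of 11224 in tips and 38407 in lung, fell by 1.76 ± 0.31 (limma adjusted p = 0.00507). Ager gave 0.89 (adjusted p = 0.0845), with every tip array above every lung array, and Pdpn was too dim to be tested. Among blood cell markers, Mrc1 of macrophages and Ptprc of leukocytes fell by 1.62 and 1.95, and Cd79b of B cells rose by 1.68 (adjusted p = 0.0423, 0.00930 and 0.0182). For Mrc1 and for Ptprc, 1 of 4 tip arrays was above background, and the groups overlapped for Mrc1. Further probe sets of Ptprc were too dim to be tested, and each was higher in tips on 3 of 4 array pairs. The tested probe sets of Lyz2 and Cd68, also of macrophages, gave 0.60 and 0.72 without passing. A dimmer probe set of Lyz2, lower on every tip array, was not tested. The macrophage list summed to between 18547 and 26237 on tip arrays and between 12738.5 and 17672 on lung arrays. The erythroid and mesothelial lists had no called probe set. The ratio of the 3′ to the 5′ control probe set of Gapdh, a sign of RNA integrity, lay between 4.18 and 12.8 on tip arrays and between 1.95 and 5.49 on lung arrays. These ranges overlapped. So did those of the same ratio for actin (23.0 to 139 on tip arrays, 38.8 to 104 on lung arrays) and for the transferrin receptor (1.87 to 16.0 on tip arrays, 1.17 to 27.9 on lung arrays). Their part in the results below was not tested.

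Translation factors were called in both directions, and more of them were lower in tips. Of the 66 member probe sets, 47 (of 40 genes) passed the filter on low values. Of these 47, 6 were higher and 15 were lower in tips, against 14.5% and 13.7% of all probe sets tested, and the member shares were 12.8% and 31.9%. The share of members called higher thus lay near the background. Either call was made for 44.7% of tested members, against 28.3% of all probe sets. The median log2 difference of the tested members was -0.36, while that of all probe sets tested was 0.35. Without the filter, all 66 had a median of 0.35 beside 0.47 over all probe sets, with 5 higher and 12 lower (7.04% and 7.08% of all probe sets). The sign of the members' median thus turned with the filter. The 4 arrays of each group did not overlap for 24 of the 47, with tips above in 7 and below in 17, against 24.1% and 18.0% of all probe sets (42.0% in either direction).

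**Figure D2:**
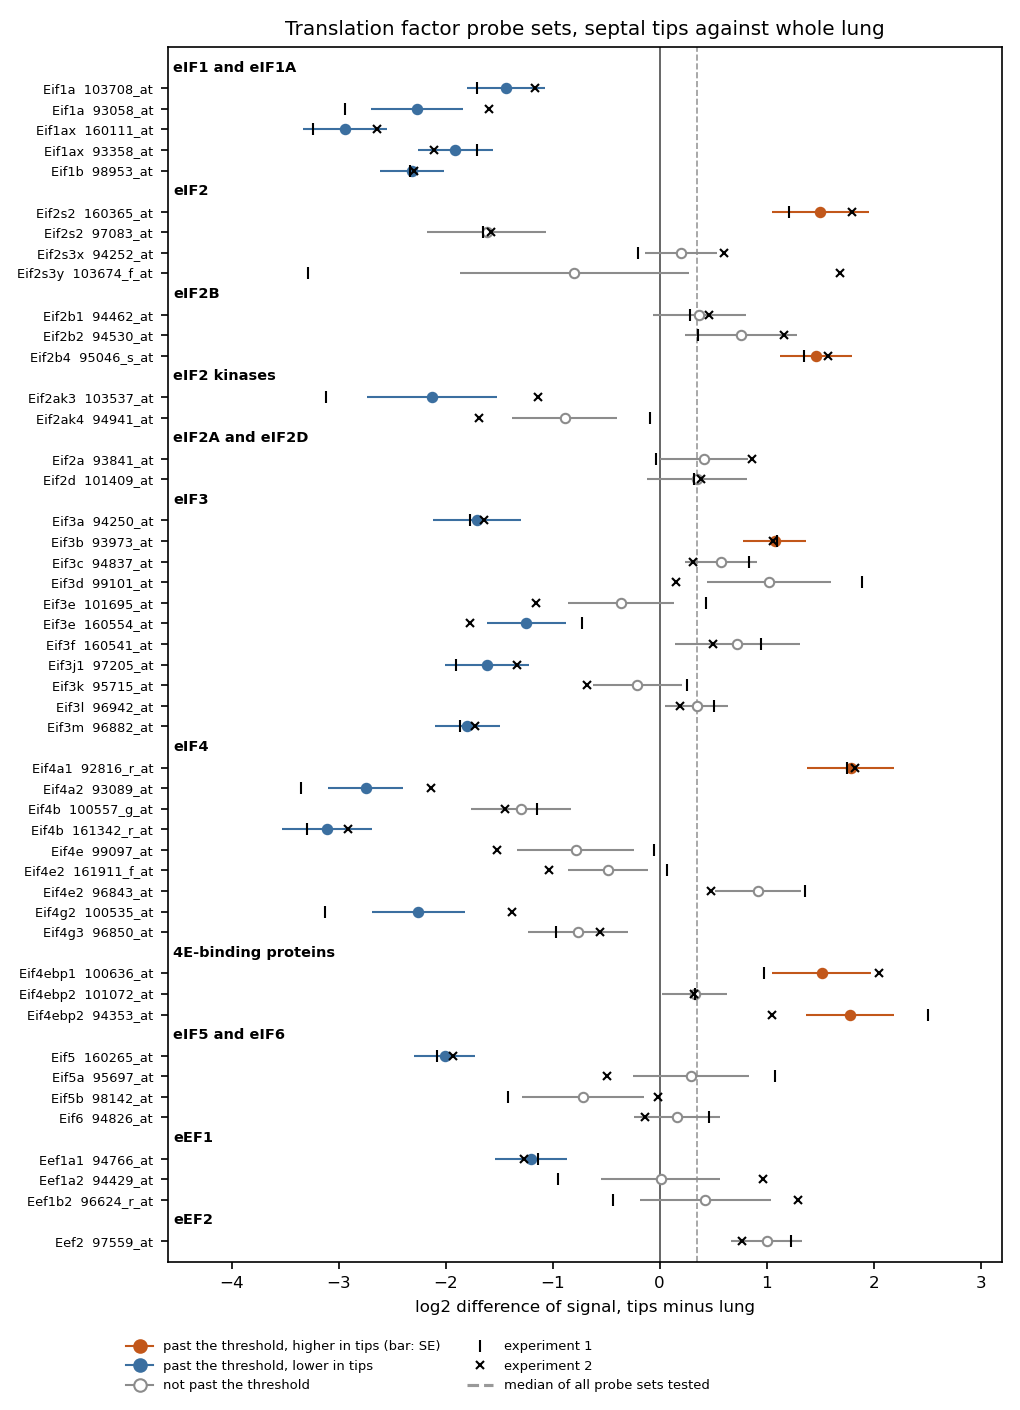
Log2 difference of tips minus lung (horizontal axis) for the 47 tested translation factor probe sets, grouped by complex, with the standard error as a bar and the differences of experiments 1 and 2 as marks. All 5 probe sets of Eif1a, Eif1ax and Eif1b lie to the left of 0, between -2.94 and -1.43, while the members of eIF3 and eIF4 lie on both sides.

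The calls of Eif1b, Eif4a2, Eif5 and the brightest probe set of Eif4b were kept under all 20 alternatives run. Under quantile normalization, median centring and cyclic loess, 13 of the 21 calls were kept, and these were all lower in tips. Quantile normalization left 4 members higher and 15 lower, beside 8.16% and 13.7% of all probe sets. Median centring left 0 higher and 17 lower (3.64% and 20.3%). Under cyclic loess 4 were higher and 16 lower (10.9% and 15.3%). Setting all signals under the highest background of any array (1244) to it left 2 higher and 8 lower among 44 tested (3.69% and 7.85%), and the next highest background (792) as floor left 6 and 13 among 45 (10.5% and 11.1%).

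Single libraries moved these counts as well. The first array of each RNA alone gave 0 higher and 9 lower among 44 tested (7.15% and 9.79% of all probe sets). The second array alone gave 4 and 12 among 46 (9.20% and 11.0%). Leaving out the tip array with the highest background gave 4 and 12 among 48 (9.77% and 11.5%). Without the lung RNA of experiment 1, 0 were higher and 6 lower among 44 (1.25% and 4.44%), namely Eif1b, Eif4a2, Eif5, Eif4b, Eif3m and the brighter probe set of Eif1ax. Without that of experiment 2, Eif4a1 and Eif4ebp2 were higher and 6 were lower among 44 (2.43% and 5.47%), namely Eif1b, Eif4a2, Eif5, Eif4b, Eif4g2 and the dimmer probe set of Eif1ax. Without the tip RNA of experiment 1, 8 were higher and 18 lower among 46 (19.9% and 15.6%), and without that of experiment 2, 9 and 17 among 45 (24.7% and 19.6%). In these fits the lone RNA of a group is assumed to vary like the pair of the other.

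**Figure D3:**
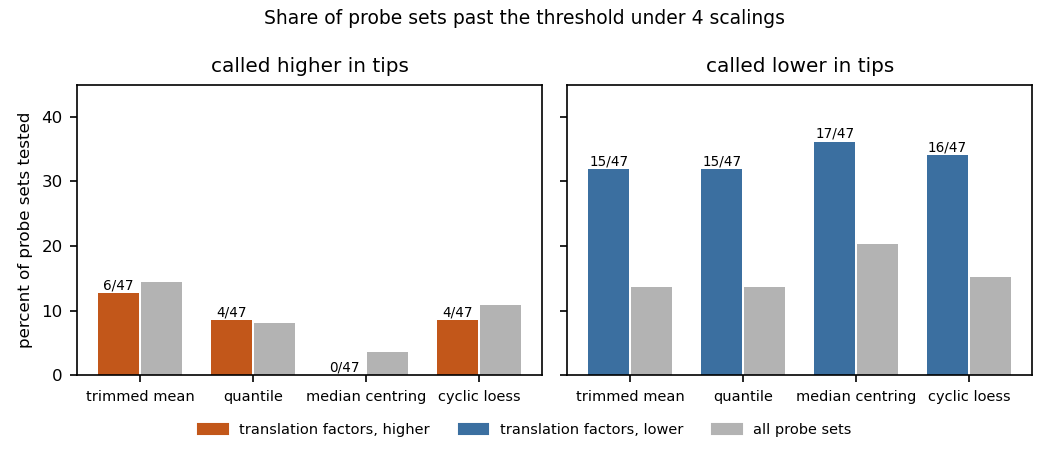
Percent of probe sets called higher (left) and lower (right) in tips under 4 scalings, for translation factors (coloured, with the count over those tested) and for all probe sets (grey). The share of translation factors called lower lies above the grey bar under each scaling, with 15 to 17 of 47, and the share called higher goes to 0 with median centring.

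Factors of start codon selection were lower in tips at every probe set of Eif1b, Eif1ax and Eif1a, 5 of 5, where 13.7% of all probe sets were called lower. The gene Eif1 itself had no member probe set. Eif1b, a close relative of eIF1 that guards the choice of the start codon, had signals of 2232, 1829.5, 2324 and 2892 on the tip arrays, against 9799.8, 11879, 12423 and 14382 on the lung arrays. All tip arrays lay below all lung arrays. It fell by 2.32 ± 0.30 (limma adjusted p = 0.00168), with -2.33 in experiment 1 and -2.30 in experiment 2. Eif1ax, the X-linked gene of eIF1A, which keeps the scanning subunit open on the mRNA, has a brighter and a dimmer probe set. The brighter gave 860.1, 1605, 2042 and 1104 on the tip arrays, against 5016, 3526, 6963 and 7051 on the lung arrays, and fell by 1.91 ± 0.35 (adjusted p = 0.00588). The dimmer gave 297, 86.3, 686 and 108 on the tip arrays, against 2979, 2867, 2712 and 2793 on the lung arrays, and fell by 2.94 ± 0.39 (adjusted p = 0.00182). Of its tip arrays, 1 was above background, and the groups did not overlap for either probe set. Eif1a, the autosomal copy, fell by 2.27 ± 0.43 at one probe set and by 1.43 ± 0.36 at the other (adjusted p = 0.00677 and 0.0206). At the first, its signals were 629, 79.6, 703 and 704 on the tip arrays, against 3476, 2782, 2642 and 2229.6 on the lung arrays, with 1 tip array above background. At the other, they were 1264, 296, 836 and 1363 on the tip arrays, against 2229.7, 2673, 2268 and 2937 on the lung arrays. With all signals under 1244, the highest background, set to that floor, the dimmer probe set of Eif1ax differed by -1.19 (adjusted p = 0.0400). The Eif1a probe sets then differed by -1.14 and -0.97 and did not pass. Nor did they without either lung RNA (adjusted p from 0.0683 to 0.188), and Eif1ax had 0.0596 at the dimmer probe set without the lung RNA of experiment 1 and 0.0910 at the brighter without that of experiment 2.

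Eif5, whose product makes eIF2 hydrolyse its GTP once the start codon is found, was also lower. Signals were 3547, 3152, 2926 and 3347 on the tip arrays, against 13985, 15415, 11856 and 12945 on the lung arrays, so the groups lay far apart and each was tight. It fell by 2.01 ± 0.29 (limma adjusted p = 0.00232), with -2.09 in experiment 1 and -1.93 in experiment 2. Eif5b, which joins the large subunit, gave -0.72 ± 0.57 at its tested probe set (adjusted p = 0.354), and the other was not tested. Eif6, an anti-association factor of the large subunit, gave 0.16 ± 0.40 (adjusted p = 0.782), and Eif5a, the hypusine-carrying factor, 0.29 ± 0.54 (adjusted p = 0.704). For these genes the arrays of tips and lung overlapped.

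The genes of eIF2 itself gave no single direction. Eif2s2, the beta subunit, differed between its probe sets. At the dimmer of them the signals were 707, 1083, 1072 and 1120.2 on the tip arrays, against 346, 249, 70.0 and 437 on the lung arrays, and it rose by 1.50 ± 0.46 (limma adjusted p = 0.0384). At the other they were 199.9, 688, 1913 and 803 on the tip arrays, against 1699, 1422, 5021 and 3238 on the lung arrays, and the difference was -1.62 ± 0.56 (adjusted p = 0.0571, and 0.00501 once experiment enters as a block, a fit that called 17.4% of all probe sets higher and 15.5% lower). With quantile normalization, median centring and cyclic loess this probe set was called lower (adjusted p = 0.0456, 0.0297 and 0.0173). The probe sets of the gene thus stood on opposite sides of 0. The higher call of the dimmer one was lost under the same 3 scalings (adjusted p = 0.158, 0.179 and 0.167), and 1 of 4 lung arrays was above background there. It was lost without either lung RNA too (adjusted p = 0.216 and 0.269). Eif2s3x, the X-linked gamma subunit, gave 2901, 2276, 4454 and 4175 on the tip arrays, against 3106, 2873, 3337 and 2322 on the lung arrays, with overlapping groups and a difference of 0.20 ± 0.34 (adjusted p = 0.674). Eif2s3y, described above, gave -0.80 ± 1.07 (adjusted p = 0.589), with -3.28 in experiment 1 and 1.68 in experiment 2. Its signals in experiment 2 were all under background. Its probe set can share transcripts with related genes, as the letter f in its name marks.

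Of eIF2B, the exchange factor that recharges eIF2 with GTP, 3 of 5 probe sets were tested and 1 was called, Eif2b4, the delta subunit. Its signals were 2465, 2750.1, 2782 and 2552 on the tip arrays, against 1048, 830.4, 903 and 695 on the lung arrays, and no arrays of the groups overlapped. It rose by 1.46 ± 0.33 (limma adjusted p = 0.0137), and the call was lost with median centring (0.92, adjusted p = 0.0859). The adjusted p was 0.102 without the lung RNA of experiment 1 and 0.129 without that of experiment 2. Eif2b1 and Eif2b2 gave 0.37 and 0.76 without passing (adjusted p = 0.539 and 0.285). Eif2b2 was under background on every lung array, and both probe sets of Eif2b5, the catalytic epsilon subunit, were too dim to be tested.

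Among the eIF2 kinases, Eif2ak3, which encodes the endoplasmic reticulum stress sensor PERK, was lower in tips. Signals were 96.4, 38.8, 797 and 602 on the tip arrays, against 1889.7, 1579, 1653 and 1758 on the lung arrays. The tip RNA of experiment 1 was lowest, and lung was even. It fell by 2.13 ± 0.61 (limma adjusted p = 0.0318), with -3.12 in experiment 1 and -1.14 in experiment 2, and 1 of 4 tip arrays lay above background. With the highest floor the difference was -0.46 (adjusted p = 0.0792), and the adjusted p was 0.211 without the lung RNA of experiment 1 and 0.196 without that of experiment 2. Eif2ak4, the amino acid sensor GCN2, gave -0.89 ± 0.49 (adjusted p = 0.193). The haem-regulated kinase gene Eif2ak1 and the double-stranded RNA-dependent kinase gene Eif2ak2 were too dim to be tested. Eif2a and Eif2d, which encode further tRNA-binding factors, gave 0.41 and 0.35 (adjusted p = 0.465 and 0.587).

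The subunits of eIF3, the large scaffold that bridges the small ribosomal subunit and the eIF4 factors, stood on both sides of 0. Of 11 probe sets of 10 genes tested, 4 were lower and 1 was higher, beside 13.7% and 14.5% of all probe sets. Eif3m, a small subunit of the core, had signals of 1894, 1212, 1856 and 2084 on the tip arrays, against 6681, 5303, 6758 and 6981 on the lung arrays. These did not overlap, and it fell by 1.80 ± 0.31 (limma adjusted p = 0.00438). Eif3j1, of the loosely bound j subunit, gave 2588, 2272, 5765 and 4700.4 on the tip arrays, against 8357, 10756, 11909.6 and 14895 on the lung arrays, with the tip RNA of experiment 2 above that of experiment 1. It fell by 1.62 ± 0.39 (adjusted p = 0.0171, and 0.0553 with quantile normalization). Eif3a, the largest subunit, gave 148, 577, 744 and 72.8 on the tip arrays, against 1574, 1313, 1268 and 1219.7 on the lung arrays, and 1 tip array was above background. It fell by 1.71 ± 0.41 (adjusted p = 0.0172). Eif3e gave 2856, 1439, 959 and 1154 on the tip arrays, against 3725, 3209, 3789 and 4144 on the lung arrays at its brighter probe set, without overlap, and fell by 1.25 ± 0.37 (adjusted p = 0.0348). With all signals under 1244 set to it, Eif3a differed by -0.11, and Eif3a, Eif3e and Eif3j1 did not pass (adjusted p = 0.384, 0.0732 and 0.0736). With the floor of 792, Eif3a and Eif3e did not pass either (0.0572 and 0.0578).

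Eif3b, the subunit that carries an RNA recognition domain and binds eIF3a, was the member of eIF3 that was higher in tips. Signals were 4737, 5112, 3973 and 5152 on the tip arrays, against 2147, 2297, 1875 and 2348 on the lung arrays, with every tip array above every lung array. It rose by 1.08 ± 0.29 (limma adjusted p = 0.0265), while median centring gave 0.54 (adjusted p = 0.260). Another probe set of Eif3b was too dim to be tested. All tip arrays of Eif3c also lay above all lung arrays. Eif3c, Eif3d, Eif3f and Eif3l gave 0.57, 1.02, 0.73 and 0.35 without passing, and Eif3k gave -0.21. A further probe set of Eif3e gave -0.36 (adjusted p = 0.598). The calls of Eif3b, Eif3a, Eif3e and Eif3j1 were lost without either lung RNA, at adjusted p of 0.149 and 0.164, 0.255 and 0.182, 0.166 and 0.221, and 0.0597 and 0.131 for experiments 1 and 2. That of Eif3m was lost without the lung RNA of experiment 2 (0.0572), and that of Eif3e also without the tip RNA of experiment 2 (0.0617).

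The RNA helicase eIF4A, which unwinds the 5′ end of the mRNA, has a pair of close paralogs, and these were called in opposite directions. Eif4a2 had signals of 1983, 848, 3171 and 1759.8 on the tip arrays, against 14850.4, 14753, 10664 and 11251 on the lung arrays. All lung arrays were above all tip arrays, and it fell by 2.75 ± 0.35 (limma adjusted p = 0.00166), with -3.36 in experiment 1 and -2.14 in experiment 2. Eif4a1 gave 1988, 2965, 3918 and 4704 on the tip arrays, against 488, 776, 1228 and 996 on the lung arrays. All tip arrays were above all lung arrays, and it rose by 1.79 ± 0.41 (adjusted p = 0.0138), with 1.75 in experiment 1 and 1.82 in experiment 2. The rise of Eif4a1 was not called with median centring (1.24, adjusted p = 0.0721), with the highest floor (1.38, 0.0674) or without the lung RNA of experiment 1 (0.133). The letter r in its probe set name marks probes chosen under relaxed rules. A probe set of Eif4a3, the helicase of the exon junction complex, carries several symbols and is no member.

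Promoter sequences of Eif4a1 and Eif4a2, of Eif2b4 as another higher gene and of Eif1b as another lower gene are shown, to set genes of opposite direction side by side. They are from RefSeq (GRCm38.p6), written 5′ to 3′ on the strand of the gene, from 250 bases before the annotated start to 20 bases from it on. Capitals mark matches, on either strand, to 7 motifs: CCGGAAG (the site of ETS factors), CACGTG (the E-box), TGACGTCA (the cyclic AMP element), GGGCGG (the GC box), CCAAT (the box of that name), TATAAA (the TATA box) and GCGCATGC (the core of the NRF1 site).
Eif4a1, chr11:69672404-69672673, minus strand: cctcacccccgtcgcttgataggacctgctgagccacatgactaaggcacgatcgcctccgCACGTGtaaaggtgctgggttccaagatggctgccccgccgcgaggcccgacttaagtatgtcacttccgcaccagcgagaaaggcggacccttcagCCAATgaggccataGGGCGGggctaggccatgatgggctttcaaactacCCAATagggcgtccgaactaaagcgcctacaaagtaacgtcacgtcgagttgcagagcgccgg
Eif4a2, chr16:23107218-23107487, plus strand: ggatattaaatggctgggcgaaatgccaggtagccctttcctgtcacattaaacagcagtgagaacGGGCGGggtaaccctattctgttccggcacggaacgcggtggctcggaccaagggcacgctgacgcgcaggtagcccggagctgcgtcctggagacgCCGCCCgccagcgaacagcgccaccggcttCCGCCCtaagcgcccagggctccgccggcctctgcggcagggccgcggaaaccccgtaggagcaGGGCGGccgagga
Eif2b4, chr5:31193120-31193389, minus strand: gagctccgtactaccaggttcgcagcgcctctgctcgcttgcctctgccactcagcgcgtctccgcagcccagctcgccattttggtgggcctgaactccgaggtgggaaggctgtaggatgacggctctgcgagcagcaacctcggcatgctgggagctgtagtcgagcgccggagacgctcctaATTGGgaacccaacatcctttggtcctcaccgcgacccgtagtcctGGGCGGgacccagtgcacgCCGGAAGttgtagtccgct
Eif1b, chr9:120492356-120492625, plus strand: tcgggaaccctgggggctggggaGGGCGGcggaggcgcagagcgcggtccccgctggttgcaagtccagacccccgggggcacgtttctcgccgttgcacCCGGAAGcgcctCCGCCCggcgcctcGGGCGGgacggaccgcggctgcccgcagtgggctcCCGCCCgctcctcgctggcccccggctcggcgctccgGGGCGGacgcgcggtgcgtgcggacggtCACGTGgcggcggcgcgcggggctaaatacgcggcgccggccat
The Eif4a1 window holds an E-box, a GC box and a pair of CCAAT boxes, while that of Eif4a2 holds 4 GC boxes and none of the other motifs. Over the full windows of 250 bases before and 50 bases from the start on, 35 of the 40 tested member genes had an entry. The E-box was in 8 of these 35 (22.9%) and in 11.8% of the 4515 genes with a tested probe set and an entry. The ETS motif was in 12 (34.3%, against 19.3%), the CCAAT box in 10 (28.6%, against 42.5%) and the GC box in 26 (74.3%, against 67.7%). The cyclic AMP element was in 1 (2.86%, against 3.39%), the TATA box in 4 (11.4%, against 10.9%) and the NRF1 core in 3 (8.57%, against 6.02%). Of the member genes with a lower probe set, 10 had an entry and 3 held the ETS motif, 2 the E-box and 9 the GC box. Of those with a higher probe set, 5 had an entry, and 2, 1 and 4 held these motifs. Translation factor mRNAs often begin with a pyrimidine tract; C at the annotated start followed by 4 bases that were C or T was found in 2 of the 35 (5.71%, Eif2s3x and Eif3f) and in 3.15% of the 4515. A match is a description of these letters.

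Eif4b, which stimulates the helicase, was lower at its brightest probe set, whose name also carries the letter r of relaxed rules. Signals were 1119, 96.5, 936 and 1056 on the tip arrays, against 6259, 4578, 9468 and 7594 on the lung arrays. Every tip array lay below every lung array, and the second tip array of experiment 1 was far below the other tip arrays. It fell by 3.11 ± 0.42 (limma adjusted p = 0.00184). At another probe set, under background on all tip arrays, the difference was -1.30 ± 0.47 (adjusted p = 0.0665). The other probe sets of Eif4b were too dim to be tested, and each was higher in tips on all 4 array pairs. Of these dim probe sets, one was under background on every array and the other was above it on 1 tip array only. The tested probe sets of Eif4b both had a negative difference.

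Eif4g2, a relative of the scaffold eIF4G that lacks the site for the cap-binding protein, was lower as well. Signals were 275, 2219, 3009.9 and 1755 on the tip arrays, against 9508, 7842, 7368 and 5284 on the lung arrays, and the tip arrays did not overlap with the lung arrays. It fell by 2.26 ± 0.43 (limma adjusted p = 0.00705), with -3.13 in experiment 1 and -1.38 in experiment 2, and had 0.0746 without the lung RNA of experiment 1. Eif4g3 gave -0.76 ± 0.47 (adjusted p = 0.236) and was under background on all tip arrays. Eif4e, the cap-binding protein, gave -0.78 ± 0.55 (adjusted p = 0.291), with a further probe set too dim to be tested. Eif4e2, a cap-binding relative that represses translation, differed between its probe sets, at 0.92 and -0.48 (adjusted p = 0.114 and 0.343). Eif4h, a helper of the helicase, was not tested.

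The 4E-binding proteins, repressors of cap-dependent initiation, were higher in tips at 2 of 3 probe sets tested and lower at none. Of all probe sets 14.5% were called higher, or 3.64% with median centring, where neither of the 2 was called. Eif4ebp1 had signals of 1359, 2874, 1452 and 2174 on the tip arrays, against 1077, 811, 555 and 157 on the lung arrays, with every tip array above every lung array. It rose by 1.51 ± 0.46 (limma adjusted p = 0.0395), but with quantile normalization, median centring and cyclic loess it did not pass (adjusted p = 0.130, 0.179 and 0.109). Eif4ebp2 gave 5024, 2583, 907 and 5445 on the tip arrays, against 540.1, 483, 535 and 1876 on the lung arrays at one probe set, where the last lung array lay among the tip arrays. It rose by 1.78 ± 0.41 (adjusted p = 0.0147, and 0.0567 with median centring). Its brightest probe set gave 12915, 10224, 9826 and 8491 on the tip arrays, against 9026, 9167, 7357 and 7199 on the lung arrays, with overlapping groups, and differed by 0.33 ± 0.30 (adjusted p = 0.425), so the probe sets of Eif4ebp2 did not give the same size. Without the lung RNA of experiment 1 or 2, Eif4ebp1 had adjusted p of 0.0732 and 0.320, and Eif4ebp2 had 0.147 without that of experiment 1. With the highest floor they differed by 0.59 and 1.15 (adjusted p = 0.0778 and 0.0668). A further probe set of Eif4ebp2 and that of Eif4enif1, which carries eIF4E to the nucleus, were too dim to be tested.

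Among elongation factors, Eef1a1, which brings aminoacyl-tRNA to the ribosome, was lower in tips. Signals were 25739.9, 22828, 23909 and 18967 on the tip arrays, against 51901, 54890.2, 51283 and 51995 on the lung arrays. The 4 lung arrays were nearly even, and all tip arrays lay below them. Mean signals were 22861 ± 2012 in tips and 52517 ± 1242 in lung (SD, n = 2 each). It fell by 1.20 ± 0.34 (limma adjusted p = 0.0300), but the difference was -0.49 with quantile normalization and -0.25 with cyclic loess (adjusted p = 0.337 and 0.653). The adjusted p was 0.152 without the lung RNA of experiment 1 and 0.135 without that of experiment 2, and 0.0572 with the highest floor. Eef1a2, a paralog known from muscle and neurons, gave 573, 355, 2192 and 1605 on the tip arrays, against 958, 1084, 1057 and 739 on the lung arrays, with a difference of 0.01 ± 0.56 (adjusted p = 0.991) and -0.95 in experiment 1 and 0.97 in experiment 2. Eef1b2, the exchange factor for eEF1A, gave 0.43 ± 0.61 (adjusted p = 0.615), and its other probe set, Eef1d and Eef1g were too dim to be tested.

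Eef2, which moves the ribosome by a codon at each step, stood on the other side of 0 from Eef1a1. Signals were 2916, 3138, 2081 and 2346 on the tip arrays, against 1341, 1084, 1283 and 1182 on the lung arrays, and all tip arrays lay above all lung arrays. The difference was 1.00 ± 0.33 (limma adjusted p = 0.0523), just outside the threshold, and it passed once experiment entered as a block (adjusted p = 0.0483). With the 3 other scalings it lay between 0.46 and 0.75, and none of them called it. The gene of its kinase, Eef2k, was too dim to be tested, as was Eef1akmt1, which encodes a methyltransferase of eEF1A.

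**Figure D4:**
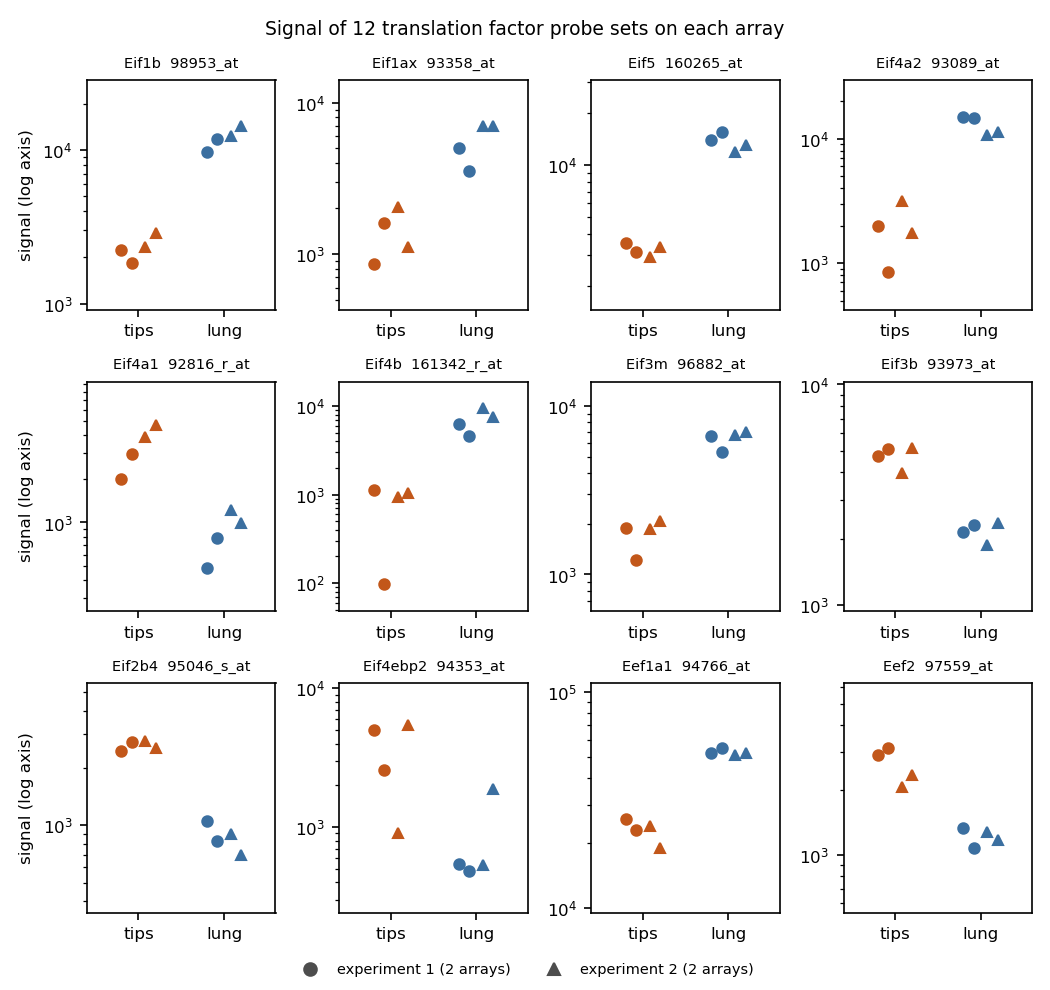
Signal of 12 translation factor probe sets on each of the 8 arrays (vertical log axis, its own range in each panel), tips left of lung, with experiments shown by symbol. Tip and lung arrays do not overlap except for Eif4ebp2, and Eif4a1 and Eif4a2 lie in opposite order.

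The 19 member probe sets that were not tested belonged to 17 genes, 8 of which had another probe set in the fit. Their signals lay between 7.50 and 1691, and 4 of them were under background on all 8 arrays. No called member was under background on all arrays of a group. Of the 7 member genes with several tested probe sets, 5 (71.4%) had the same sign at all of them, against 61.3% of all 896 such genes. Eif2s2 and Eif4e2 were the exceptions. Of the 47 tested members, 37 had the same sign in experiments 1 and 2. Arrays of the same RNA differed by a median of 0.64 and 0.33 (log2) over the members in the tip RNAs of experiments 1 and 2, and by 0.27 and 0.30 in the lung RNAs.

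Other genes of the translation pathway were taken from lists of 42 genes, of which 31 were on the array and 28 (33 probe sets) were tested. Of the 33, 5 were higher and 3 lower (14.5% and 13.7% of all probe sets), and their median log2 difference was 0.12. In the mTOR axis, Mtor, the kinase that phosphorylates the 4E-binding proteins, rose by 1.56 ± 0.36 at one probe set (limma adjusted p = 0.0137) and gave 0.50 at another probe set (adjusted p = 0.298). Tsc2, an inhibitor of mTOR, rose by 1.28 ± 0.40 (adjusted p = 0.0438). Of the integrated stress response, which eIF2 kinases start, Ppp1r15a, a phosphatase subunit that reverses eIF2 phosphorylation, rose by 1.65 ± 0.50 (adjusted p = 0.0374). Atf4, the transcription factor translated when eIF2 is phosphorylated, rose by 1.00 ± 0.33 (adjusted p = 0.0484) and was named after its value was seen. The other tested genes of this list did not pass: Ddit3, Asns, Trib3, Atf3 and Ppp1r15b gave 0.01, 0.12, -0.18, 0.21 and -0.90. Further probe sets of Atf3 and Asns were too dim to be tested. Among partners of the cap and the poly(A) tail, Paip2, a repressor of the poly(A)-binding protein, had signals of 1847, 376, 1131 and 1651 on the tip arrays, against 6789.8, 4634, 6812 and 6254 on the lung arrays, and fell by 2.31 ± 0.33 (adjusted p = 0.00232). Pabpc4, a poly(A)-binding protein, rose by 1.25 ± 0.33 (adjusted p = 0.0231). The helicase gene Ddx3x fell by 1.40 ± 0.34 at one probe set (adjusted p = 0.0171) and gave 0.26 at another. Etf1, the release factor that reads stop codons, fell by 0.93 ± 0.30 at one probe set (adjusted p = 0.0461), and the other 3 tested gave between -0.58 and -0.26. When either lung RNA was left out (experiment 1, then experiment 2), the call of Paip2 was kept (adjusted p = 0.0286 and 0.0379). Those of Mtor (0.147 and 0.0682), Pabpc4 (0.0691 and 0.193), Ppp1r15a (0.306 and 0.107) and Tsc2 (0.175 and 0.236) were lost. So were those of Atf4 (0.227 and 0.258), Ddx3x (0.0835 and 0.192) and Etf1 (0.236 and 0.238).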

How the data were processed

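The authors deposited intensities, linear MAS5 signals (the tool is named in the submitters' processing notes, without a version), 1 per probe set and array. The trimmed means of the arrays, without 2% of probe sets at each end, lay at 1501. PicoPure extraction is given in the labels' protocols. RiboAmp amplification is given there for every tip array but only for the first array of lung experiment 1, although the design text describes parallel amplification of both tissues.

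Each array was brought to the common trimmed mean, an offset of 10% of it (150.1) was added and log2 was taken, which understates differences of dim probe sets. The 66 control probe sets were left out, then those with a mean log2 value under the 40th percentile, which left 7453. Arrays of an RNA were averaged, and tips were set against lung in a limma 3.58.1 model (R 4.3.3; moderated with an intensity trend), which had 2 residual and 7.05 prior degrees of freedom. The number of RNA samples limits the precision: the median standard error was 0.40. The p-values rest on how the RNA pools of a group vary between experiments, moderated by the variance of other probe sets. Experiments differ in litters and in processing, and these parts cannot be told apart. Promoters came from RefSeq, and protein sequences were not used here. All 66 member probe sets matched the RefSeq table (GRCm38.p6) by gene ID.

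Named were all members, with signals of each array for called ones and for the one with the smallest p of a complex with no call, plus called pathway genes, at most 4 in each direction, to which Atf4 was added after its value was seen. Other members with signals were chosen after theirs were seen too. Members, lists and tests were chosen with earlier results of these data known. Same-numbered experiments share processing in the design text, so they pair tips and lung, and deviations from the group means correlated at 0.0452 over 7453 probe sets. Alternatives were other scalings, offsets, floors, filters, models, arrays and leaving out each RNA.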

Additional observations from a re-analysis of the deposited data

Results flagged for a closer look

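In 94 groups of 4 arrays, 5 had an array far from the others. The cut-off gives about 1 in 20 groups by chance for independent values. Arrays of the same RNA are not independent, so that rate need not hold here. On array 2 of the tip RNA of experiment 1, Eif1a lay at 79.6 and Eif4b at 96.5, below the other tip arrays. On array 1 of the same RNA, Eif2s2 lay at 707, also the lowest. Among lung arrays, Eif3m was lowest on array 2 of experiment 1, at 5303, and Eif4ebp2 was highest on array 2 of experiment 2, at 1876.

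The experiments gave opposite directions on both array pairs for 4 of the 47 tested members, and the difference was not tested. Tips minus lung was -3.28 in experiment 1 and 1.68 in experiment 2 for Eif2s3y, and -0.21 and 0.60 for Eif2s3x. It was 0.44 and -1.16 for one probe set of Eif3e, and -0.95 and 0.97 for Eef1a2. The signals of Eif2s3y in experiment 2 were all under background.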

How the results depend on the processing

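Over 888 refits of the 47 tested members under 20 alternatives, 736 kept their direction and side of the threshold, 85 lost a call, 25 gained one and 42 changed sign, none of them a called member. Array 2 of the tip RNA of experiment 1 was left out after seeing the data. The cause of these changes was not tested.

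Members called higher (6) came to 0 with median centring, 2 with the floor of 1244 and 0 with array 1 alone, and those called lower (15) to 8 with that floor and 9 with array 1 alone. With 1 RNA left out they ranged from 0 to 9 higher and from 6 to 18 lower. All probe sets called higher (1084) came to 608 with quantile normalization, 271 with median centring, 275 with the floor of 1244, 533 with array 1 and 686 with array 2 alone, and those called lower (1022) to 585 with that floor. With 1 RNA left out they ranged from 93 to 1838 higher and from 331 to 1463 lower. The median difference of the members (-0.36) was -0.90 with median centring, 0.080 and 0.16 with floors of 1244 and 792, 0.35 without a filter, and from -0.50 to 0.012 with 1 RNA left out. With the experiment as a replicate block, 7 members were higher and 16 lower, and besides Eif2s2 and Eef2 it changed no call of a member.

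The sign changes under quantile normalization, median centring and cyclic loess were Eif2b1 (-0.15, -0.17 and -0.16), Eif2a (-0.081, -0.13 and -0.064), Eif2d (-0.13, -0.19 and -0.17), Eif5a (-0.20, -0.25 and -0.27), Eif6 (-0.34, -0.38 and -0.32) and Eef1a2 (-0.46, -0.53 and -0.45). Median centring alone turned Eif2s3x (-0.34), Eif3l (-0.19), the brightest probe set of Eif4ebp2 (-0.21) and Eef1b2 (-0.11). The floor of 1244 turned Eif3k (0.12) and Eif4e (0.081), and the offset of 1% turned Eef1a2 (-0.038). Array 1 alone turned Eif2b1 (-0.21) and Eef1b2 (-0.16), and array 2 alone Eif2a (-0.068), Eif6 (-0.029) and Eef1a2 (-0.15). Without array 2 of the tip RNA of experiment 1, Eif2b1 gave -0.14, Eif2d -0.38 and Eef1b2 -0.11. With 1 RNA left out, the range was -0.16 to 0.56 for Eif2s3x, -0.78 to 0.060 for a probe set of Eif3e, -0.69 to 0.27 for Eif3k, -1.46 to 0.028 for Eif5b, -0.053 to 0.38 for Eif6, -0.86 to 0.88 for Eef1a2 and -0.64 to 1.49 for Eef1b2.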
